A study of Homo sapiens with 15 samples.

Results

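Self-renewing neuromesodermal progenitors (srNMPs) were set against undifferentiated embryonic stem cells (ESCs), the state from which they had been derived. The comparison used 5 of the 15 libraries in the series, chosen by their labels: srNMPs of the H1 line at passage 8 and at passage 25, srNMPs of the HUES9 line at passage 8 and at passage 25, and HUES9 ESCs. H1 and HUES9 are established human embryonic stem cell lines, and the labels give all 5 cultures as wild type. The srNMPs carry the treatment label neural induction and the ESCs the label no induction. The study made srNMPs that could later be turned into spinal neurons or skeletal muscle, and the other 10 libraries hold those derivatives. There was 1 ESC library. It came from HUES9, so a difference between H1 srNMPs and ESCs mixes the line with the cell state, and the difference was therefore also taken within HUES9 alone (2 libraries against 1).

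Neuromesodermal progenitors are cells of the posterior embryo that give rise both to spinal cord and to the paraxial mesoderm from which trunk muscle forms. They are known for joint expression of the mesodermal factor TBXT and the neural factor SOX2, are kept by WNT and FGF signals, and switch on HOX genes that record position along the body axis. Human ESCs resemble the epiblast, an epithelium whose pluripotent state rests on POU5F1, SOX2 and NANOG and on NODAL and FGF signals.

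Messenger RNA levels are given in FPKM, fragment counts scaled to transcript length and to library size, as deposited. The srNMP values of a gene are listed in the order H1 passage 8, H1 passage 25, HUES9 passage 8 and HUES9 passage 25. A change is the srNMP minus ESC difference on the log2(FPKM + 1) scale with its standard error, from a limma fit that also held a term for the cell line, and the p-values are adjusted over 12485 genes. Where the 2 lines differ, the line term can make a change depart from the plain difference of the means. Genes with an adjusted p under 0.05 are referred to as called. The single ESC library is assumed to vary like the other groups and adds nothing to the spread, so no p here measures variation between ESC cultures. The labels do not say that the srNMP cultures were independent, and 2 passages of a line stand as its replicates. The 5 libraries had relative depths of 0.954 to 1.051 and 10785 to 11354 genes at 1 FPKM or more. In bulk RNA, fewer cells of a type and less RNA per cell cannot be told apart.

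The 5 marker genes went with the labels. POU5F1, the core pluripotency factor, stood at 0.0605, 0.0105, 0.189 and 0.314 FPKM in srNMPs against 691 in ESCs, and the NODAL co-receptor gene TDGF1 was listed at 0 in all 4 srNMP libraries against 362. HOXB9, a thoracic HOX gene, stood at 389, 375, 270 and 203 against 0.609, and FGF17, an FGF ligand of the tail bud and the midbrain-hindbrain border, at 78.6, 140, 243 and 100 against 0.0668. TBXT was the least even of them, at 2.11, 1.87, 13.4 and 7.39 against 0.178. All 4 srNMP libraries lay on 1 side of the ESC library for each of the 5 genes, and the HUES9 srNMPs held more TBXT than the H1 srNMPs. Other markers fixed for the label split further. SP5, a WNT target of the tail bud, was at 25.1, 52.9, 45.2 and 16.02 FPKM against 0.134, whereas CDX2 was at 0.00615 FPKM in the H1 passage 8 library, and NKX1-2, a factor of the caudal epiblast, was higher in ESCs (49.6) than in any srNMP library (0 to 11.2). TBXT lost its call without the HUES9 passage 25 library (adjusted p = 0.08).

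Of the 12485 genes, 2528 were called (20.2%), 1365 of them higher in srNMPs (10.9%) and 1163 lower (9.32%). Within HUES9 alone 2305 were called (18.5%), 1225 higher (9.81%) and 1080 lower (8.65%). Both comparisons use the same ESC library and share the HUES9 srNMPs. They had 2102 calls in common, 83.1% of the first list and 91.2% of the second, and 0 of these differed in sign. Every one of the 2528 called genes had all 4 srNMP libraries on the same side of the ESC library, which was also true of 66.5% of all genes tested. A change of 3 or more on the log2 scale was called for 112 genes that rose and 161 that fell. Over all genes tested the median of the change was 0.107, which is the value to set beside the medians of gene groups. With the 5 libraries fitted alone, 514 genes were called, 148 higher and 366 lower, and without the HUES9 passage 25 library 1657, 807 higher and 850 lower. Of the 118 called genes given with values or by name here, 70 were called under every setting tried, 27 lost the call only when the 5 libraries were fitted alone, and 21 lost it under another setting. No called gene of these changed sign. Losses, and calls gained under another setting, stand with the genes, though not every such setting is listed for each gene. Leaving out an srNMP library leaves a single one in its passage group, whose gap between lines then no longer adds to the spread. A call gained that way can come from the smaller spread.

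**Figure D1:**
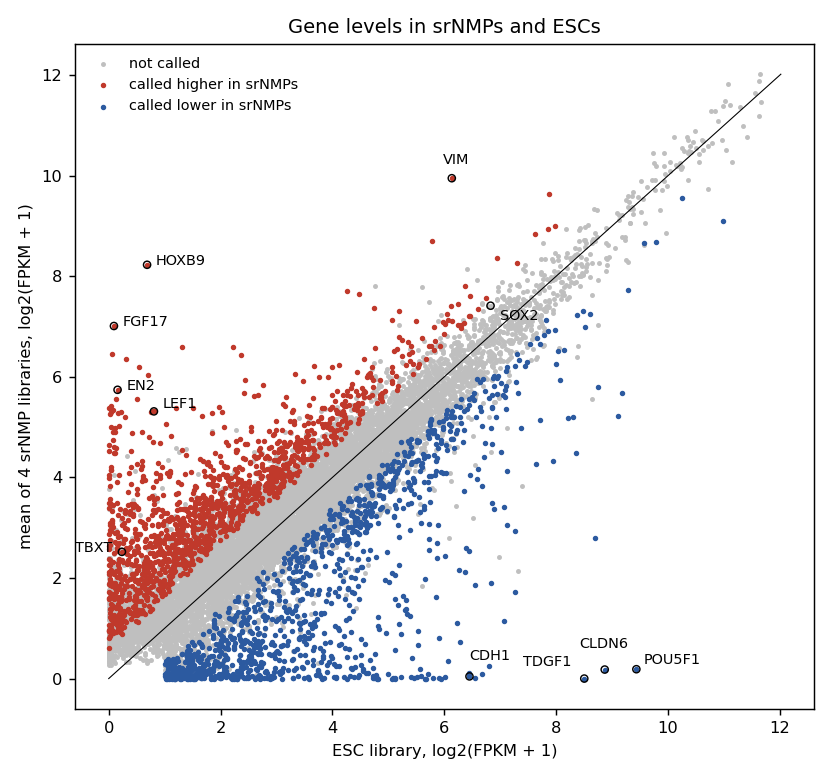
Each point is 1 of the 12485 tested genes, with its level in the ESC library on the horizontal axis and its mean over the 4 srNMP libraries on the vertical axis, both as log2(FPKM + 1). Called genes are red (1365 higher in srNMPs) or blue (1163 lower), the line marks equal levels, and of the labelled genes all but VIM and SOX2 lie near an axis, where 1 of the states has few or no transcripts.

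Pluripotency factors and epithelial junction genes were among the genes that fell furthest. Of 18 core pluripotency factors, 12 fell and 0 rose (median change -2.95), and the same number fell within HUES9. NANOG, a core factor, stood at 0.0643, 0.0056, 0.053 and 0 FPKM against 47.0 in ESCs (-5.54 ± 0.12, adjusted p = 1.94e-07). PRDM14, a repressor of germ layer genes, was at 0, 0.0466, 0 and 0.0697 FPKM against 63.7 (-5.97 ± 0.13), and ZSCAN10, a zinc finger factor of stem cells, at 0 to 0.00965 against 92.9 (-6.55 ± 0.13). UTF1, a chromatin protein of ESCs, had no reading above 0 in any srNMP library and 50.01 FPKM in ESCs. Each of these genes was under 1 FPKM in every srNMP library. The loss was not uniform. DPPA4, a chromatin protein of pluripotent cells, fell from 314 FPKM to 55.9, 24.4, 38.9 and 30.9, so that it remained a well expressed gene in every srNMP library (-3.17 ± 0.25, adjusted p = 0.000182).

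Several factors that ESCs share with neural progenitors were not called. SOX2 stood at 213, 165, 161 and 146 FPKM against 113 in ESCs, above it in all 4 libraries but not called (0.60 ± 0.25, adjusted p = 0.127). It was called without HUES9 passage 8 (adjusted p = 0.0447). SALL4, a zinc finger factor of ESCs and early progenitors, was at 16.3 to 22.9 FPKM against 31.5 (adjusted p = 0.433), MYCN at 40.1 to 52.0 against 43.3 (adjusted p = 0.936), and SALL2 at 70.1 to 165 against 113 (adjusted p = 0.905). The standard errors of the SALL4 and MYCN changes were 0.45 and 0.48, so a moderate change of either would have been hard to detect. The srNMP libraries thus held SOX2 at or above the ESC level beside next to no POU5F1 or NANOG.

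Surface and marker genes of ESCs fell almost as a block. Of 22, 19 fell and 0 rose (median -3.62), and all 22 were lower in each of the 4 srNMP libraries than in ESCs, which held for 28.7% of all genes. TERF1, a telomere protein abundant in ESCs, fell from 244 FPKM to 17.7, 19.9, 22.7 and 16.4 (-3.58 ± 0.20, adjusted p = 2.53e-05). PODXL, which carries the TRA-1 antigens of ESCs, fell from 325 FPKM to 29.2, 25.3, 16.2 and 17.2 (-4.14 ± 0.42, adjusted p = 0.000585). In both genes the srNMP libraries lay close together and far below ESCs. L1TD1, an RNA-binding protein of ESCs, was far less even, at 0.0282, 8.92, 23.9 and 7.95 FPKM against 414, lowest in H1 passage 8 (-5.51 ± 1.25, adjusted p = 0.021). L1TD1 lost its call with a pseudocount of 0.1 (adjusted p = 0.0711), without the HUES9 passage 25 library (0.0621) and with the 5 libraries alone (0.137). The uncalled members were ALPL, CD9 and SFRP2. ALPL, the alkaline phosphatase used as an ESC stain, stood at 46.1, 87.1, 60.7 and 66.2 FPKM against 87.6, with 1 srNMP library about level with ESCs and 3 below (adjusted p = 0.567). Naive pluripotency genes had little to lose: 3 of 13 were tested, and DPPA3, DPPA5 and KLF4 were at 1.96 to 3.74 FPKM in ESCs and at 0 to 0.118 in srNMPs.

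NODAL pathway genes fell in part, among them ligands, antagonists and the co-receptor gene TDGF1. Of 22 genes tested of 26 in the table, 10 fell and 2 rose (median -0.71). Among all genes tested 9.32% fell and 10.9% rose, so the share that rose was near that of all genes. The ligand NODAL was listed at 0 in all srNMP libraries against 26.7 FPKM in ESCs. LEFTY1, an antagonist that NODAL itself induces, was at 0.0342, 0, 0.118 and 0.0178 FPKM against 18.9 (-4.30 ± 0.21, adjusted p = 1.15e-05). LEFTY2 was at 0 to 0.096 against 12.7, the ligand GDF3 at 0 to 0.0235 against 32.9, and FOXH1, the DNA-binding partner of SMAD2 in this pathway, at 0 to 0.0573 against 44.4. Together with TDGF1 these genes were near 0 in every srNMP library of both lines. Activin receptor genes, looked at after their values were seen, were not called: ACVR1B stood at 11.6, 9.50, 7.81 and 11.3 FPKM against 8.80 (0.06 ± 0.24), and ACVR2A and ACVR2B spanned 1.93 to 4.19 and 6.16 to 10.3 FPKM, around their ESC levels of 2.12 and 7.05. SMAD3, a transducer of the pathway, rose from 6.79 FPKM to 30.7, 30.1, 26.6 and 25.3 (1.93 ± 0.26, adjusted p = 0.00244), with srNMP libraries in a narrow band well above ESCs. SMAD7, its feedback inhibitor, fell from 21.8 FPKM to 0.436, 0.518, 0.802 and 1.20 (-3.69 ± 0.42, adjusted p = 0.00108). The primitive streak targets EOMES and GSC fell from 1.38 and 1.04 FPKM, levels low in ESCs already. EOMES, GSC and SMAD3 lost their calls with the 5 libraries alone (adjusted p = 0.0714 to 0.0793), and the number that rose ranged from 0 in that fit to 4 without the HUES9 passage 8 library.

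Epithelial junction genes fell in 1 direction only. Of 36 genes 35 were tested, 30 fell and 0 rose (median -2.63), 27 fell within HUES9, and all 35 were lower in each srNMP library than in ESCs. With the 5 libraries alone 19 fell. CDH1, which encodes E-cadherin, stood at 0, 0.0241, 0.0628 and 0.036 FPKM against 86.5 (-6.59 ± 0.49, adjusted p = 0.000117), and the tight junction claudin CLDN6 at 0.163, 0.0637, 0.302 and 0.0212 against 467 (-8.75 ± 0.29, adjusted p = 1.12e-06). CLDN7 was listed at 0 in all 4 libraries against 60.4, and ESRP1, a splicing factor that keeps epithelial isoforms, at 0 to 0.00699 against 58.9. EPCAM, an adhesion molecule, retained a trace at 0.269, 2.08, 1.56 and 1.40 FPKM against 134 (-5.84 ± 0.43). The loss reached polarity and trafficking genes: CRB3, an apical polarity protein, was listed at 0 against 5.14 FPKM, and AP1M2, an adaptor of basolateral sorting, fell from 45.5 to 0.263 to 1.39 (-4.93 ± 0.26). Not every junction gene was called. DSP, the desmosome plaque protein, stood at 24.5, 38.6, 32.9 and 41.5 FPKM against 42.7 (-0.19 ± 1.52), and CXADR, a tight junction adhesion protein, at 16.4 to 23.5 against 24.6 (-0.21 ± 0.23). KRT8, an intermediate filament of simple epithelia, was at 17.3 to 67.7 FPKM against 295 in ESCs, a call lost with the 5 libraries alone (adjusted p = 0.0774).

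Mesenchymal genes were mixed in direction, 5 higher and 2 lower of 16 tested (median 0.975), against 10.9% and 9.32% of all genes. VIM, the intermediate filament of mesenchyme and of neural progenitors, rose from 69.3 FPKM to 808, 1203, 1073 and 914 (3.85 ± 0.44, adjusted p = 0.00101). CDH2, N-cadherin, rose from 22.8 FPKM to 95.6, 77.3, 66.4 and 89.3 (1.79 ± 0.27, adjusted p = 0.00401). All 4 libraries thus held N-cadherin transcript and next to no E-cadherin transcript. ZEB2, a repressor of CDH1 that is also active in the neural plate, rose from 0.108 FPKM to 15.2, 11.4, 12.7 and 17.9 (3.91 ± 0.37, adjusted p = 0.000416), and its relative ZEB1 from 0.229 to 11.8, 7.70, 5.25 and 14.5 (2.98 ± 0.48, adjusted p = 0.00508). SNAI1, a transcriptional repressor that acts at gastrulation, went the other way, from 4.23 FPKM to 0.293, 1.09, 1.26 and 1.08 (-1.47 ± 0.35, adjusted p = 0.0256). TWIST1 did not reach 1 FPKM in any of the 5 libraries, and FN1, a matrix protein of mesenchyme, was at 10.5 to 22.6 FPKM against 24.6 (adjusted p = 0.243). SNAI1 lost its call with a pseudocount of 0.1 (adjusted p = 0.109), without HUES9 passage 25 (0.0648) and with the 5 libraries alone, where CDH2 and ZEB1 lost theirs too (0.0813 to 0.162 for the 3 genes).

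**Figure D2:**
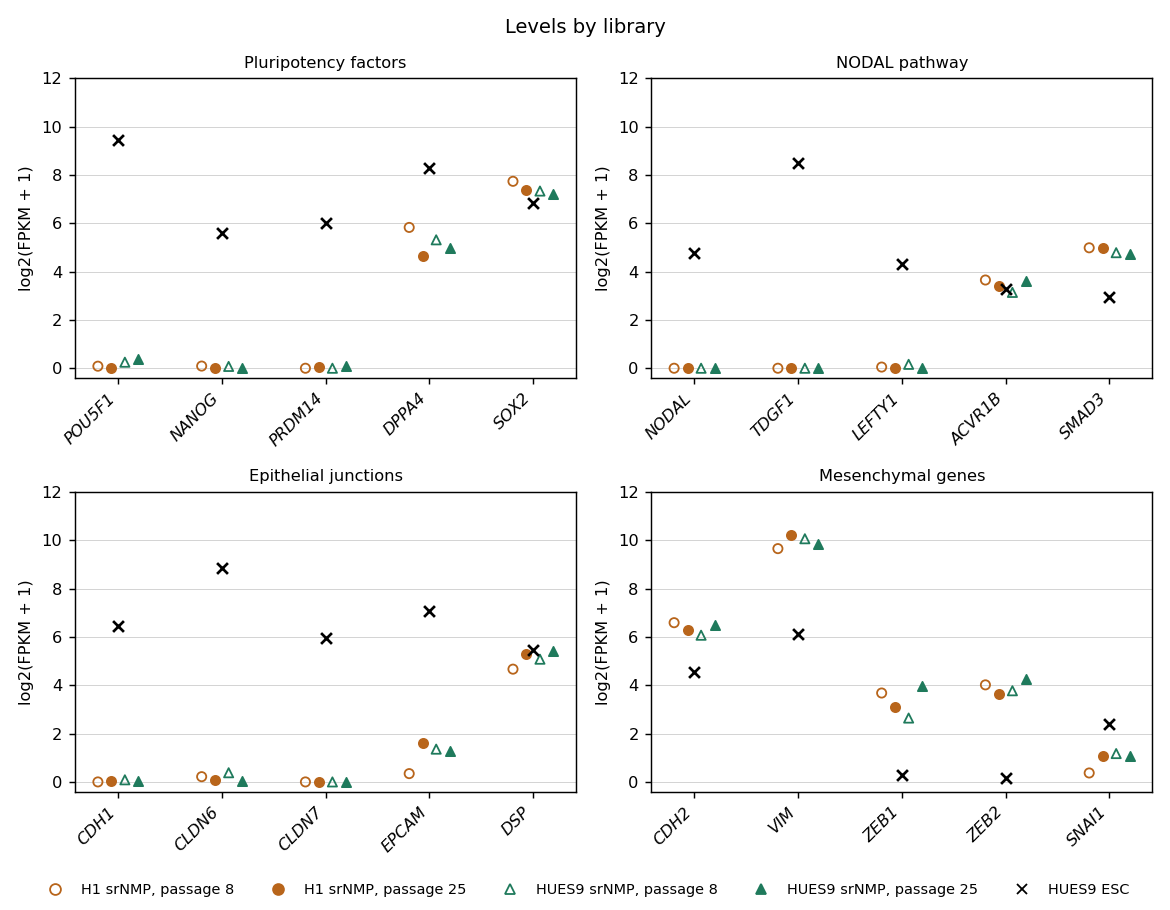
Levels of 20 genes in each of the 5 libraries, as log2(FPKM + 1), in 4 panels: pluripotency factors, NODAL pathway genes, epithelial junction genes and mesenchymal genes. Circles are H1 and triangles HUES9 srNMPs, filled for passage 25, and crosses are the ESC library: the receptor ACVR1B overlaps ESCs, SOX2 lies just above them, CDH1 and CLDN6 are near 0 in srNMPs, and VIM, CDH2, ZEB1 and ZEB2 lie above ESCs.

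ZEB and SNAI proteins bind the E-box CACCTG, so promoters of the epithelial genes were searched for it after these values had been seen. The RefSeq promoter table (GRCh38.p14) held an entry for 16 of the 36 genes. CDH1, EPCAM and ESRP1 had no entry and were not searched. In the 250 bases before the start, on either strand, 10 of the 16 had CACCTG (62.5%), against 20.6% of all 27305 genes in the table and 26.7% of the 888 genes with an entry that fell. Several genes have more than 1 entry, which raises a share per gene. The windows of CLDN7, CRB3 and AP1M2 are shown because they hold the motif several times, with each CACCTG, or CAGGTG where it lies on the other strand, in capitals. CLDN7 has a second entry with 0 matches. Matches did not go with the change in every gene: CLDN6 had 0, and DSP, which was not called, had 2. The windows shown span chr17:7262479-7262728 (minus strand), chr19:6464021-6464270 (plus strand) and chr19:10587313-10587562 (minus strand), and each is written 5′ to 3′ on the strand of the gene.
CLDN7: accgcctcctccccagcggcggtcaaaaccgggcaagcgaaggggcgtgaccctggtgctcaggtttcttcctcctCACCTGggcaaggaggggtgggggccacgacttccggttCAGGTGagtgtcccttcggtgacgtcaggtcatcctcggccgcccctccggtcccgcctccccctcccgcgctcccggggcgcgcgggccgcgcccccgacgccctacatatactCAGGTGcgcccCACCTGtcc
CRB3: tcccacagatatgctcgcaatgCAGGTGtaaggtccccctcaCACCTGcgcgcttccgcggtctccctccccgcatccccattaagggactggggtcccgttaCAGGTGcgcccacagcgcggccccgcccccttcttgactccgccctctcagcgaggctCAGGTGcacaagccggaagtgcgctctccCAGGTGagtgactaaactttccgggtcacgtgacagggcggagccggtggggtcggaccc
AP1M2: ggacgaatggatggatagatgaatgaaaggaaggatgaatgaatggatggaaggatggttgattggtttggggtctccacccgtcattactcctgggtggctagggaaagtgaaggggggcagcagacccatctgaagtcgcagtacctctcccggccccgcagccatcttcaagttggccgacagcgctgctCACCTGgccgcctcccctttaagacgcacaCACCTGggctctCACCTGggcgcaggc
CLDN7 held 4 matches, CRB3 5 and AP1M2 3. A match is a description of the letters in the window, and binding was not measured here.

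Transcription factors of the neuromesodermal state were not raised as a group. Of 13 tested of 18, 2 rose (TBXT and SP5) and 2 fell (NKX1-2 and MIXL1), and within HUES9 4 rose and 2 fell. Over both lines, the shares of all genes that rose and fell were 10.9% and 9.32%. TBXT had an adjusted p of 0.0299 over both lines (2.62 ± 0.65) and of 0.000323 within HUES9 (3.22 ± 0.29). CDX2, a caudal factor that opens trunk HOX genes, was at 0.00615, 11.5, 39.0 and 21.8 FPKM and listed at 0 in ESCs (3.90 ± 1.41, adjusted p = 0.0928). CDX4, its relative, was at 0, 6.06, 37.7 and 28.8 FPKM against 0.479 (3.32 ± 1.41, adjusted p = 0.14). Both were called within HUES9 (adjusted p = 0.0268 and 0.0137), where both passages lay far above ESCs, while the H1 passage 8 library held next to none of either. NKX1-2 ran opposite to its use as a caudal marker, at 0, 2.69, 11.2 and 4.28 FPKM against 49.6 in ESCs (-3.31 ± 0.94, adjusted p = 0.0453). HES3 (14.0 to 48.2 FPKM against 71.3), GBX2 (2.41 to 30.6 against 30.2) and SP8 (1.34 to 20.9 against 15.3), all expressed in the caudal neural plate, were not called, and the ESC library held transcripts of all 3. MSGN1 and TBX6, factors of mesoderm commitment, were under 1 FPKM in all 5 libraries. The count of factors that rose was 4 without either passage 8 library and 1 without HUES9 passage 25, where TBXT lost its call (adjusted p = 0.08), as it did without the line term (0.058) and without the filter (0.0502). NKX1-2 lost its call under 6 settings, among them a pseudocount of 0.1 (adjusted p = 0.153) and the removal of either passage 25 library (0.0712 and 0.109). With the 5 libraries alone MIXL1 stood at 0.0504, and within HUES9 that fit ended the calls of CDX2 (0.136) and CDX4 (0.0995). The HUES9 call of CDX2 was also lost without HUES9 passage 8 (adjusted p = 0.0775), and that of CDX4 with a pseudocount of 0.1 (0.0752). Over both lines the changes of CDX2 and CDX4 were 4.75 and 4.12 without H1 passage 8, and 2.19 and 1.73 without HUES9 passage 8. CDX2, CDX4 and HES3 gained calls in 1 or both of these fits. There the passage 8 group had a single library, so the gap between its lines no longer entered the spread.

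HOX genes rose across the head-to-trunk range. Of 15 genes of paralog groups 1 to 5, 14 rose and 0 fell (median 3.31) and all 15 were above ESCs in each library, which held for 37.7% of all genes. HOXB1, the most 3′ gene of its cluster, rose from 1.18 FPKM to 21.8, 25.03, 35.96 and 28.0 (3.91 ± 0.26, adjusted p = 6.99e-05). HOXB3 rose from 0.083 FPKM to 21.7, 24.0, 34.5 and 37.9 (4.95 ± 0.32, adjusted p = 5.3e-05). The spread between srNMP libraries was small against the distance to ESCs. HOXD1 was the exception, at 0.0295, 0.262, 4.49 and 2.31 FPKM against 0.0161, with H1 near the ESC level (adjusted p = 0.169). Of 12 genes of groups 6 to 9, 7 rose and 0 fell (median 4.59), and the 4 clusters differed. HOXB6, HOXB7, HOXB8 and HOXB9 all rose, HOXB6 evenly from 0.0817 FPKM to 32.6, 29.8, 30.02 and 31.1 (4.92 ± 0.32, adjusted p = 5.3e-05). HOXC8, HOXC9, HOXD8 and HOXD9 were not called: HOXC9 stood at 0.0565, 9.84, 13.2 and 4.80 FPKM against 0.0616 and HOXD8 at 0.087, 2.80, 13.9 and 3.78 against 0. The H1 passage 8 library was at 0.218 FPKM or less for all 4 of these genes, while it held 389 FPKM of HOXB9. Without it HOXC8 and HOXC9 were called (adjusted p = 0.0137 and 0.00763), and with the 5 libraries alone HOXD9 was (0.0339).

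The limit of the posterior code differed between libraries. Only 3 of 12 genes of groups 10 to 13 reached 1 FPKM. HOXC10, a lumbar gene, stood at 0, 0.661, 14.6 and 8.01 FPKM against 0.123 (3.22 ± 2.27, adjusted p = 0.358), and HOXA10 at 0.0109, 0.571, 3.38 and 3.43 against 0.0119 (adjusted p = 0.388). Both HUES9 libraries lay above both H1 libraries for these genes, and neither was called within HUES9 (adjusted p = 0.363 and 0.451). Both were called over both lines when the 5 libraries were fitted alone (adjusted p = 0.0458 for each). HOXB13, the last gene of its cluster, fell, from 2.26 FPKM in ESCs to 0 to 0.253. Of 11 HOX cofactors 1 rose and 2 fell, against 10.9% and 9.32% of all genes. PKNOX2 rose from 0.846 FPKM to 22.1, 23.2, 12.9 and 17.6 (3.29 ± 0.37, adjusted p = 0.000972), and TGIF1 and PKNOX1 fell. MEIS1 was uneven at 14.5, 0.769, 4.33 and 9.98 against 0.0332 (adjusted p = 0.069). MEIS1 was called without H1 passage 25 (adjusted p = 0.0121), without HUES9 passage 8 (0.0251) and with a pseudocount of 0.1 (0.0146). The call of PKNOX1 was lost without H1 passage 25 (adjusted p = 0.0625), without HUES9 passage 25 (0.0771) and, as was that of TGIF1, with the 5 libraries alone (0.0944 to 0.334). The change of PKNOX1, -0.90, was under 1 in size.

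**Figure D3:**
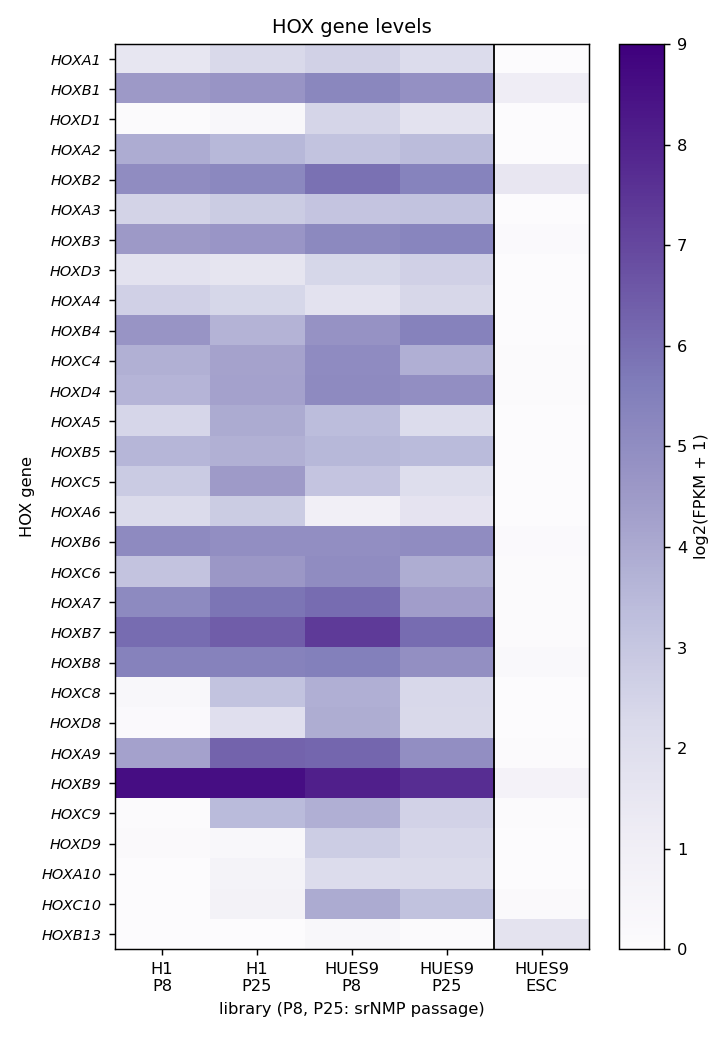
Levels of the 30 tested HOX genes (rows, ordered by paralog group and then by cluster) in the 5 libraries (columns), as log2(FPKM + 1) on a colour scale from 0 to 9. The ESC column is pale throughout. Genes of groups 1 to 5 other than HOXD1 and the HOXB genes of groups 6 to 9 are darker in all srNMP columns. HOXD1, HOXC8, HOXC9, HOXD8, HOXD9 and the group 10 genes are pale in the H1 passage 8 column.

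FGF genes changed in both directions. Of 15 tested of 21 genes of ligands, receptors and FGF-binding proteins, 5 rose and 4 fell. FGF17 rose by 7.23 ± 0.89 (adjusted p = 0.00151), after HOXB9 the largest rise called at all, and FGF8, its close relative with the same embryonic sites, from 3.65 FPKM to 71.4, 80.8, 171 and 86.3 (4.41 ± 0.49, adjusted p = 0.0009). Both were highest in HUES9 passage 8. FGF2, the ligand on which cultured ESCs depend, fell from 9.37 FPKM to 4.95, 3.74, 3.79 and 4.62 (-0.95 ± 0.24, adjusted p = 0.0319), and FGF19 from 19.4 to 1.05, 5.15, 3.21 and 1.25 (-2.53 ± 0.72, adjusted p = 0.0453). FGFR1, the main receptor at this stage, was at 34.6 to 57.5 FPKM against 71.9 (adjusted p = 0.204, and 0.0446 without H1 passage 8), whereas FGFR3 and FGFR4 fell from 5.07 and 14.1 FPKM to 0.0871 to 0.609 and 1.23 to 5.13. The feedback genes of this pathway were split, with 3 of 20 higher and 3 lower, where 10.9% of all genes rose and 9.32% fell. DUSP6, a phosphatase induced by ERK, was at 34.8 to 98.1 FPKM against 98.2 (adjusted p = 0.863) and ETV5 at 16.6 to 23.3 against 18.7 (adjusted p = 0.842). SPRY4 fell from 48.6 FPKM to 9.56, 10.6, 8.74 and 8.52 (-2.29 ± 0.55, adjusted p = 0.0266), and the phosphatase DUSP5 from 39.4 to 0.224, 1.52, 3.25 and 1.73 (-4.08 ± 0.66, adjusted p = 0.00526). IL17RD, an FGF antagonist expressed with FGF8, rose from 24.4 FPKM to 79.9, 57.9, 79.8 and 52.1 (1.38 ± 0.30, adjusted p = 0.0184). The calls of the falling FGF genes were the least stable in this group: without HUES9 passage 25, 3 rose and 0 fell, and with equal library totals 4 rose and 1 fell. FGF2, FGF19, FGFR3 and FGFR4 each lost the call under at least 3 settings (adjusted p = 0.0511 to 0.294), and SPRY4 lost it with a pseudocount of 0.1 (0.252) and without either HUES9 library (0.0513 and 0.0737). DUSP5 and IL17RD lost it with the 5 libraries alone. The count of feedback genes that rose was 1 without H1 passage 25.

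Among WNT target and feedback genes 8 of 21 rose, 1 fell and 12 were not called (median 1.32). Of all genes tested 10.9% rose and 9.32% fell. The summed level of the WNT list was 269 to 369 FPKM in srNMPs against 480 in ESCs, lower in every srNMP library. LEF1, the WNT effector of the tail bud, rose from 0.751 FPKM to 32.8, 47.6, 54.7 and 26.3 (4.64 ± 0.47, adjusted p = 0.000561). SP5 rose by 4.79 ± 0.58 (adjusted p = 0.00139) and TNFRSF19, a receptor induced by WNT, from 0.0937 FPKM to 19.7, 23.0, 32.0 and 19.2 (4.42 ± 0.35, adjusted p = 0.00016). AXIN2, the general feedback inhibitor, rose less, from 7.23 FPKM to 24.9, 33.9, 22.9 and 21.1 (1.65 ± 0.38, adjusted p = 0.0224). TCF7L1, the repressing TCF of ESCs, was the gene that fell, from 64.7 FPKM to 16.5, 14.0, 12.02 and 23.1 (-1.78 ± 0.40, adjusted p = 0.0205). All these genes had every srNMP library on 1 side of ESCs. Of the ligands, WNT3A and WNT8A were under 1 FPKM in all 5 libraries, WNT3 was at 3.11 to 4.40 against 4.39 FPKM, and the noncanonical ligands rose: WNT5B from 0.359 FPKM to 5.93, 6.06, 12.6 and 10.9 (3.16 ± 0.40, adjusted p = 0.00172) and WNT5A from 0.833 to 2.85, 5.93, 22.9 and 17.2 (2.84 ± 0.76, adjusted p = 0.0382), higher in HUES9. Among receptors FZD10 rose from 1.04 FPKM to 24.2, 33.5, 45.2 and 30.1 (4.11 ± 0.42, adjusted p = 0.000568), FZD5 fell from 12.9 to 0.0623 to 0.646 and the WNT5A receptor ROR1 from 16.2 to 0.806 to 1.41 (-3.06 ± 0.37). The promoter window of SP5 (chr2:170715087-170715336, plus strand, RefSeq, GRCh38.p14) is shown because SP5 had the largest rise of the list. The TCF and LEF motif CTTTGAT is in capitals, and ATCAAAG on the other strand was searched too.
SP5: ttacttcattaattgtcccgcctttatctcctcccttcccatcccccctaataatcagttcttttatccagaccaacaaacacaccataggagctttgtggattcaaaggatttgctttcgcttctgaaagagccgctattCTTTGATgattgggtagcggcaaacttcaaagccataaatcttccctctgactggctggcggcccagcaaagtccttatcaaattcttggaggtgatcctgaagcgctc
SP5 held the motif once and was the 1 gene with it among the 15 of the list that have an entry, against 2.75% of all genes in the table. This motif too was chosen after the values had been seen. With the 5 libraries alone 4 genes of the target list rose and 0 fell, and AXIN2 and TCF7L1 lost their calls (adjusted p = 0.124 and 0.11). WNT5A lost its call without HUES9 passage 25 (adjusted p = 0.102), without the line term (0.0614) and without the filter (0.0639), and without that library 2 of the ligands and receptors rose in place of 4.

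Genes of the midbrain-hindbrain border rose beside the trunk HOX genes. Of 17 regional brain factors tested of 20, 4 rose and 4 fell (median -0.608), against 10.9% and 9.32% of all genes. EN1, a homeobox gene of that border and of later spinal neurons, was at 52.0, 40.5, 39.3 and 32.2 FPKM and listed at 0 in ESCs (5.69 ± 1.24, adjusted p = 0.0183). EN2 rose from 0.116 FPKM to 72.4, 46.3, 54.6 and 41.5 (5.88 ± 1.41, adjusted p = 0.0261), and PAX8 from 0.0224 to 43.8, 24.8, 30.8 and 27.6 (4.89 ± 0.71, adjusted p = 0.00329). PAX2, which like PAX8 is used at this border, rose from 0.0297 FPKM to 27.4, 23.9, 14.2 and 8.31 (3.93 ± 0.87, adjusted p = 0.0192). These 4 genes were present in all srNMP libraries of both lines. PAX5, their relative, was at 18.4, 7.96, 3.10 and 24.8 FPKM against 0.814 and not called (adjusted p = 0.154), and WNT1, the WNT ligand of the border, was under 1 FPKM in all 5 libraries. The genes that fell were SIX6, SIX3, OTX2 and DMBX1, homeobox genes of the anterior brain. SIX6 was listed at 0 in srNMPs against 33.7 FPKM, SIX3 at 0 to 0.0102 against 6.48, OTX2 at 0 to 0.0267 against 5.43, and DMBX1 at 0 against 1.65. EN2 lost its call without HUES9 passage 25 (adjusted p = 0.0553). Within HUES9 EN2 was called (adjusted p = 0.0374), but not without the filter (0.0647) or without either H1 library (0.0617 for each).

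Neural plate genes rose in part, 8 of 27 tested (median 2.07) with 0 lower, against 10.9% higher and 9.32% lower of all genes. The POU factor POU3F2 rose from 0.093 FPKM to 54.0, 36.6, 28.8 and 77.7 (5.54 ± 0.47, adjusted p = 0.000242). PRTG, a surface receptor of the early neural tube and mesoderm, rose from 0.241 FPKM to 159, 61.2, 42.4 and 101 (5.93 ± 0.79, adjusted p = 0.00218), and SOX3 from 1.31 to 43.1, 24.4, 27.1 and 93.2 (4.45 ± 0.78, adjusted p = 0.00758). NES, the intermediate filament used as a neural progenitor marker, was not called, at 130 to 222 FPKM against 156 (0.17 ± 0.41), with srNMP libraries on both sides of ESCs. PAX6, the marker of committed spinal and forebrain progenitors, was at 0.178, 0.161, 0.324 and 24.5 FPKM against 0.136. The HUES9 passage 25 library stood alone for PAX6, for NKX6-1 (22.0 FPKM against 0.112 to 0.944 in the other srNMP libraries) and for DBX1 (66.0 against 0 to 0.157), homeobox genes of the ventral and intermediate spinal cord. It also held the most FABP7, a fatty acid carrier of radial glia, at 240 FPKM against 29.0 to 80.1 in the others and 0.451 in ESCs (5.98 ± 1.19, adjusted p = 0.0128), and the most PRAME, a cancer-testis antigen gene, at 39.0 against 0 to 1.22. The count of neural plate genes that rose was 13 with a pseudocount of 0.1 and 5 with the 5 libraries alone, where SOX3 lost its call (adjusted p = 0.0533).

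Neuronal genes were called higher in 3 of 21 tested (SNAP25, NEFL and NEFM), with 0 lower, against 10.9% higher and 9.32% lower of all genes. NEFL, a neurofilament subunit, rose evenly from 19.5 FPKM to 61.0, 50.9, 64.3 and 52.1 (1.53 ± 0.26, adjusted p = 0.00619). STMN2, which marks newborn neurons, was at 13.3, 3.26, 2.47 and 72.0 FPKM against 7.71, and TUBB3 at 131 to 300 against 206. Without HUES9 passage 8, 6 neuronal genes were called higher, and with the 5 libraries alone 0 were. NEFM lost its call under 5 settings, among them without H1 passage 25 (adjusted p = 0.0542) and without HUES9 passage 25 (0.0791). The summed level of the neuronal list was 450 to 812 FPKM in srNMPs against 571 in ESCs. Lists of other cell types were thinly expressed. Paraxial mesoderm and somite genes summed to 41.1 to 78.8 FPKM in srNMPs against 13.5 in ESCs, and MSGN1, TBX6 and MESP2 were under 1 FPKM throughout; their 1 called gene was DLL1, a NOTCH ligand also used by neural progenitors, and its call was lost without HUES9 passage 25 (adjusted p = 0.0748) and after quantile normalization (0.0501). Neural crest genes summed to 44.7 to 83.7 FPKM in srNMPs against 68 in ESCs, with SOX10 at 9.89 FPKM in HUES9 passage 8 and at 0 to 0.241 in the other srNMP libraries. Endoderm genes summed to 23.9 to 48.1 FPKM in srNMPs against 17.8 in ESCs, with a large contribution from CXCR4, a chemokine receptor also active in other progenitors, which rose from 0.321 FPKM to 10.7, 22.5, 34.96 and 27.6 (4.42 ± 0.72, adjusted p = 0.00548). Amnion and surface ectoderm genes summed to 1.61 to 8.29 FPKM in srNMPs against 20.3 in ESCs, muscle and cardiac genes to 11.9 to 30.2 FPKM in srNMPs against 43.2 in ESCs and endothelial and blood genes to 0.547 to 2.58 FPKM in srNMPs against 22.5 in ESCs. Of these lists, 12 of 20 paraxial mesoderm genes, 11 of 17 endoderm genes, 10 of 16 amnion and surface ectoderm genes, 10 of 18 muscle genes and 13 of 15 endothelial genes in the table were under 1 FPKM in all 5 libraries. FOXA2 of endoderm, MYOD1 of muscle and GATA4 of heart and endoderm were listed at 0 in all 4 srNMP libraries. The part of other cell types in the results above was not tested.

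**Figure D4:**
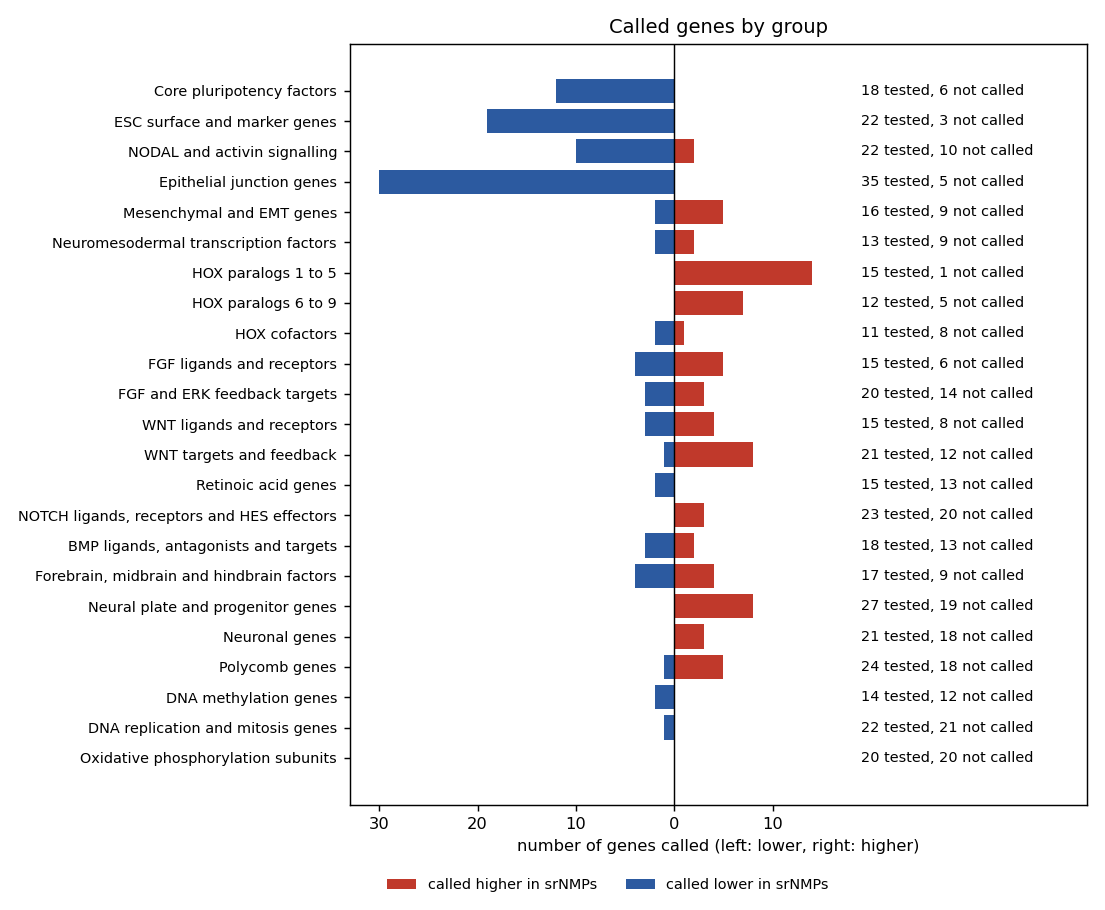
For 23 gene groups, the number of tested members that were called higher in srNMPs (red, to the right), or called lower (blue, to the left), with the numbers tested and not called written beside each bar. ESC marker and epithelial junction bars extend to the left only, and HOX bars of groups 1 to 9 to the right only.

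Other signalling pathways moved in single genes. Over all genes 10.9% rose and 9.32% fell, and the shares that rose in the BMP and NOTCH groups were close to the former. In the BMP group 2 of 18 rose and 3 fell: BAMBI, a decoy receptor, fell from 15.4 FPKM to 0.0164, 0.0343, 1.01 and 0.0854 (-3.67 ± 0.39, adjusted p = 0.000768), and the receptor BMPR1A from 28.8 to 10.3, 9.74, 11.8 and 13.8 (-1.14 ± 0.23, adjusted p = 0.0148). The target ID1 was at 4.80 to 18.7 FPKM against 73.0 and not called (adjusted p = 0.18). In the hedgehog group 3 of 9 tested rose, among them SUFU, an inhibitor, from 1.42 FPKM to 9.17, 8.22, 4.59 and 8.76 (1.72 ± 0.34, adjusted p = 0.0128), while SHH was under 1 FPKM in all 5 libraries. In the NOTCH group 3 of 23 rose (5 within HUES9), among them MFNG, a glycosyltransferase of NOTCH, from 0.0582 FPKM to 3.18, 4.04, 4.21 and 4.56 (2.14 ± 0.32, adjusted p = 0.00401). Of 15 retinoic acid genes, CYP26A1 and ALDH1A3 fell, the former, which breaks retinoic acid down, from 7.22 FPKM to 0.0666 to 0.141 (-2.84 ± 0.76, adjusted p = 0.038). CYP26A1 lost its call when any 1 srNMP library was left out (adjusted p = 0.0547 to 0.0937), and BMPR1A and SUFU with the 5 libraries alone (0.158 to 0.203). Hedgehog genes that rose numbered 1 without HUES9 passage 25 and 5 without HUES9 passage 8. The NOTCH count was 1 after quantile normalization, and 1 BMP gene rose when either passage 25 library or HUES9 passage 8 was left out.

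Chromatin genes shifted in a few members. Of all genes tested, 10.9% rose and 9.32% fell. In the LIN28 group 2 of 17 rose and of the imprinted genes 2 of 19, shares close to the former. Of 14 DNA methylation genes tested, 2 fell. DNMT3B, the de novo DNA methyltransferase that dominates in ESCs, fell from 549 FPKM to 32.9, 53.6, 26.1 and 38.0 (-3.94 ± 0.22, adjusted p = 2.57e-05), and DNMT3A from 27.8 to 11.5, 9.81, 7.20 and 9.63 (-1.53 ± 0.25, adjusted p = 0.00559). The other 12 DNA methylation genes tested, including DNMT1 (32.2 to 69.1 against 46.2), were not called. Of 24 polycomb genes, JARID2, an ESC subunit that recruits the complex, was the one that fell, from 138 FPKM to 21.0, 12.3, 10.9 and 25.5 (-2.89 ± 0.47, adjusted p = 0.0053). The catalytic subunit EZH2 rose from 19.01 FPKM to 29.5, 34.1, 36.2 and 34.1 (0.87 ± 0.20, adjusted p = 0.0224), and CBX8, RING1 and BMI1 rose as well, while EED and SUZ12 were not called. The changes of EZH2, RING1 and BMI1 were under 1 (0.87, 0.97 and 0.95), so these calls end where a log2 change of 1 is required. In the LIN28 group, LIN28B was at 27.4 to 37.7 FPKM against 48.2 (adjusted p = 0.298), TRIM71 fell and IGDCC3 rose from 32.4 FPKM to 127, 131, 128 and 175 (2.20 ± 0.17, adjusted p = 0.000155). Among 19 imprinted genes, PLAGL1 rose from 0.0545 FPKM to 44.0, 26.3, 17.4 and 22.0 (4.88 ± 0.79, adjusted p = 0.00531) and NDN from 18.6 to 35.96 to 58.7. RING1 lost its call when any 1 srNMP library was left out (adjusted p = 0.0564 to 0.0766) and TRIM71 when any but H1 passage 8 was (0.0608 to 0.085). BMI1 lost it without HUES9 passage 25 (adjusted p = 0.0931), where 3 polycomb genes rose. DNA methylation genes called numbered 4 when either passage 8 library was left out. With the 5 libraries alone 0 polycomb genes were called, and CBX8, DNMT3A, EZH2, IGDCC3, JARID2 and NDN were among those that lost the call (adjusted p = 0.0613 to 0.29).

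Few genes of growth and metabolism were called. Of 22 DNA replication and mitosis genes 1 was called (MCM5, lower) and of 20 oxidative phosphorylation subunits 0. Of 23 glycolysis genes 1 rose and 2 fell. Over all genes tested 20.2% were called, with 10.9% higher and 9.32% lower. Of 16 cyclin, CDK inhibitor and related genes 2 rose, a share near that of all genes, and 1 fell, CCND3, a D cyclin, from 11.6 FPKM to 2.76, 4.996, 4.17 and 3.34 (-1.47 ± 0.36, adjusted p = 0.0278). The cell cycle brakes RB1 and CDKN1B rose, RB1 from 4.68 FPKM to 16.8, 12.9, 14.5 and 18.8 (1.65 ± 0.28, adjusted p = 0.00678) and CDKN1B from 7.75 to 26.8, 20.7, 25.5 and 25.96 (1.55 ± 0.23, adjusted p = 0.00368). For RB1 and CDKN1B every srNMP library lay well above ESCs. For the oxidative phosphorylation subunits the limma fit gave 3 with an unadjusted p under 0.05. Leaving out HUES9 passage 8 gave 7 called lower and leaving out H1 passage 8 gave 2. The call of MCM5 was lost under 7 settings other than the fit of the 5 libraries, and leaving out any srNMP library but H1 passage 8 ended it (adjusted p = 0.0578 to 0.128). RB1 and CDKN1B lost theirs with the 5 libraries alone (adjusted p = 0.121 and 0.0982), as did CCND3 there (0.2) and without HUES9 passage 25 (0.0791). Without HUES9 passage 25, 1 glycolysis gene was called.

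Some matrix, cadherin and guidance genes changed, in both directions. Of 27 laminin, collagen and integrin genes tested 2 rose and 3 fell, and their median change of 0.126 was near that of all genes (0.107). Of 11 cadherins 2 rose and 2 fell, and of 26 ephrin and guidance genes 5 rose and 3 fell. Among all genes tested 10.9% rose and 9.32% fell. COL2A1, the collagen of notochord, somite and neural tube sheaths, rose from 0.624 FPKM to 108, 91.0, 33.8 and 51.7 (5.23 ± 0.68, adjusted p = 0.00195), higher in H1, and COL11A1, its partner in fibrils, from 0.807 to 33.9, 16.3, 8.40 and 13.5 (2.99 ± 0.57, adjusted p = 0.0108). COL1A1 and the laminin-binding integrin subunit ITGA3 fell, from 10.1 FPKM to 0.69 to 2.16 and from 10.3 to 0.791 to 1.91. P-cadherin, CDH3, fell with E-cadherin, from 34.96 FPKM to 0.88, 3.35, 1.71 and 1.66 (-3.98 ± 0.70, adjusted p = 0.00737). The ephrin receptor EPHA1 was at 0.00797 to 0.112 FPKM against 101 (-6.57 ± 0.15, adjusted p = 1.94e-07). SEMA6A, a guidance ligand that is abundant in ESCs, fell from 153 FPKM to 1.45, 3.14, 1.40 and 3.93 (-5.60 ± 0.51, adjusted p = 0.000354). COL11A1, COL1A1 and ITGA3 lost their calls with the 5 libraries alone (adjusted p = 0.0595 to 0.0832).

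Some genes with the largest changes belonged to none of these groups. NCALD, a neuronal calcium sensor, rose from 0.123 FPKM to 43.5, 26.7, 35.05 and 51.6 (5.44 ± 0.46, adjusted p = 0.000233), and ZNF503, a zinc finger factor, from 0.0189 to 34.97, 47.9, 49.6 and 22.8 (5.28 ± 0.54, adjusted p = 0.000598). SMOC1, a secreted BMP modulator, rose from 0.0567 FPKM to 31.1, 38.6, 20.2 and 29.4 (5.19 ± 0.89, adjusted p = 0.00681). Among the losses, CYP2S1, a cytochrome of epithelia, was at 0 to 0.156 FPKM against 85.8 (-6.40 ± 0.14), the glycosyltransferase B3GNT7 at 0.0151 to 0.153 against 86.2 (-6.37 ± 0.18), and PDGFA, a growth factor of the epiblast, at 0 to 0.0247 against 54.7 (-5.82 ± 0.18). None of the 4 srNMP libraries reached 1 FPKM for these 3 genes.

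Between srNMPs of the 2 lines, 2 genes were called (0.016% of those tested), GREM1 and KANK4, and 810 of 12485 had an unadjusted p under 0.05. Chance alone would put a share of about 0.05 of the genes under that threshold. GREM1, a BMP antagonist, stood at 0.00563, 0.184, 3.80 and 3.52 FPKM, and KANK4, a cytoskeletal adaptor, at 0.0274, 0.205, 4.13 and 2.95, with ESCs at 0.0266 and 0.0149. Both were thus above ESCs in HUES9 srNMPs (GREM1 H1 minus HUES9 -2.09 ± 0.13, adjusted p = 0.00404) and near the ESC level in H1 passage 8. Both calls were lost without HUES9 passage 8 (adjusted p = 0.0585 for each), with a pseudocount of 0.1 (0.216 and 0.227) and with the 5 libraries alone (0.101 and 0.195), and that of KANK4 also without H1 passage 8 (0.0895) and after quantile normalization (0.0882). Leaving out 1 srNMP library gave between 0 and 20 calls, 18 of them without HUES9 passage 25 and 20 without H1 passage 25. In CRABP1, TSPYL5 and GDA the means of the 2 lines lay on opposite sides of the ESC library by at least 1 on the log2 scale. CRABP1, a retinoic acid carrier, was at 2317, 605, 26.9 and 309 against 288. TSPYL5 was at 0, 0, 6.51 and 9.21 FPKM against 2.24, and GDA, a guanine deaminase, at 0.0103, 0.0594, 3.99 and 10.6 against 1.51. The imprinted genes PEG3 (0.0123, 0.0193, 10.7 and 17.0 FPKM against 7.62) and NAP1L5 (6.19, 6.24, 0.0573 and 0 against 0.0158) also split by line, in opposite directions. In genes of this kind the line term of the fit takes up part of the difference, so the change over both lines can depart from the plain means.

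**Figure D5:**
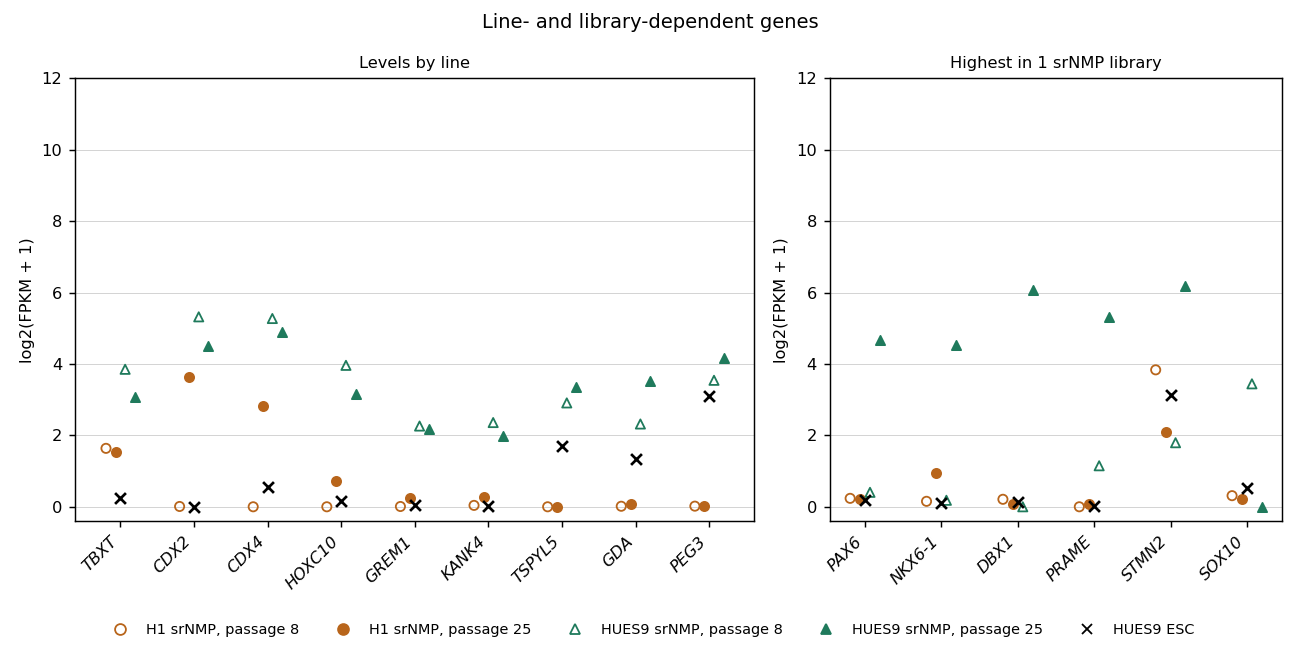
Levels of 15 genes in the 5 libraries as log2(FPKM + 1), in 2 panels: genes compared between H1 and HUES9 srNMPs (left) and genes highest in 1 srNMP library (right). Circles are H1 and triangles HUES9 srNMPs, filled for passage 25, and crosses are the ESC library: CDX2 and CDX4 are near 0 in H1 passage 8, and PAX6, NKX6-1, DBX1 and PRAME are highest in HUES9 passage 25.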

How the data were processed

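Stranded mRNA libraries were sequenced on a NovaSeq 6000, per the labels' protocols. The authors deposited 1 FPKM value per gene and library for 17999 genes, and the submitters' processing notes name Trimmomatic, HISAT2, HTSeq, Cufflinks and build hg18, without versions or roles. Read counts were not used here. Over 4610 genes with low values, 84.1% of 20290 FPKM values were within 2% of whole multiples of an estimated fragment value, and relative depths were derived from these. A value column without a sample label (1) was left out.

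Genes at 1 FPKM or more in at least 1 of the 5 libraries (12485) were tested as log2(FPKM + 1) with limma 3.58.1 (R 4.3.3, moderated test with trend, 2-sided, Benjamini-Hochberg adjustment). The fit over both lines used all 15 libraries, so that the other groups add to the estimate of the spread, with the cell line from the labels as a block. The fit that gave the HUES9-only and between-line contrasts had separate H1 and HUES9 srNMP means and a line term for the other groups. The scripts were tested on simulated data. Promoter windows came from RefSeq (GRCh38.p14) and were matched by symbol.

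The members, the 46 gene lists and the tests were chosen with earlier results of these data known. Named genes were 5 marker genes, and of each list the first 3 members and up to 4 called members per direction with the largest change at 5 FPKM or more. To these were added the 15 largest changes per direction called in both contrasts, up to 8 genes per direction called between the lines and up to 5 on opposite sides of ESCs. Chosen after their values were seen were ACVR1B, ACVR2A, ACVR2B, ALDH1A3, ALPL, AP1M2, BMI1, CBX8, CD9, CDX4, CRB3, CXADR, DBX1, DMBX1, DNMT1, DPPA4, DSP, DUSP6, ETV5, FGFR1, FN1, FOXA2, GATA4, GBX2, GREM1, HES3, HOXB13, HOXB8, HOXC8, HOXC9, HOXD8, HOXD9, ID1, KANK4, KLF4, KRT8, MESP2, MFNG, MIXL1, MYCN, NAP1L5, NES, NKX6-1, PAX5, PEG3, PODXL, PRAME, SALL2, SALL4, SFRP2, SMAD2, SNAP25, SP8, SUZ12, TERF1, TWIST1, UTF1, WNT1, WNT3 and WNT8A. Alternatives were equal library totals, quantile normalization, a pseudocount of 0.1, no filter, the 5 libraries alone, no line block, a minimum log2 change of 1 and leaving out each srNMP library. Results for some genes are not reported here.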

Additional observations from a re-analysis of the deposited data

Results flagged for a closer look

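For 164 genes and library totals of the text, each srNMP library was compared with the other 3. In 10 genes 1 library stood apart by a gap that was wide for the range of the 4. About 1 in 20 such groups of 4 would be marked by chance alone, and 10 of 164 is close to that share. DBX1, given below, had been chosen after its values were seen. The HUES9 passage 25 library was the high one for PAX6 at 24.5 FPKM, for DBX1 at 66.0 and for IGDCC3, a surface receptor gene, at 175. The HUES9 passage 8 library was the high one for SOX10 at 9.89 FPKM, for the decoy receptor gene BAMBI at 1.01 and for the polycomb gene EED at 16.9. It was the low one for SUFU at 4.59 FPKM and for the cofactor gene TGIF1 at 5.94. The H1 passage 8 library was the low one for SNAI1 at 0.293 FPKM and the high one for LIN28B at 37.7.

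GREM1 and KANK4 differed between srNMPs of the 2 lines in the limma fit, by -2.09 and -2.02 (H1 minus HUES9, log2 scale, adjusted p = 0.00404 and 0.0187). In GDA, PEG3 and TSPYL5 both H1 libraries lay on one side of the ESC library and both HUES9 libraries on the other. The difference was -2.88 for GDA, -3.83 for PEG3 and -3.13 for TSPYL5, and in the same fit none of these passed (adjusted p = 0.576 for GDA and 0.729 for the other two). With 2 libraries per line, line and culture cannot be told apart.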

How the results depend on the processing

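With the 5 libraries fitted alone, which leaves fewer samples to estimate the spread, 514 genes were called against 2528 (148 higher, 366 lower), and within HUES9 1160 against 2305 (474 higher, 686 lower). Between the lines that fit called 6 genes, 6 of them higher in H1 and 0 lower. A pseudocount of 0.1 called 0 genes between the lines and quantile normalization 1, lower in H1. The causes of these last shifts were not tested. Leaving out 1 srNMP library in turn gave 1657 to 2923 calls over both lines, 807 to 1605 higher and 850 to 1330 lower, the fewest without HUES9 passage 25. Within HUES9 the range was 1824 to 2399, and between the lines it was 0 to 20, with 0 to 4 higher and 0 to 17 lower in H1. A HUES9 arm left with 1 library is assumed to vary like the other groups.

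The fit without the cell line as a replicate block called 2877 genes over both lines, 2667 within HUES9 and 2 between the lines, and ended the calls of TBXT and WNT5A. No other alternative moved a count over both lines or within HUES9 by more than 1.5 times, and no called gene given in the text reversed. The share of calls that were higher in srNMPs was 54.0% in the fit of the report, 44.4% without the filter on low values and 61.1% with a pseudocount of 0.1. Depth and the single ESC library limit what can be seen: the lowest nonzero levels rest on few fragments, and variation between ESC cultures was not measured.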
